A study of Mus musculus with 53 samples.

Results

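The set described here holds 100 of the 20175 probes of a whole transcriptome panel, chosen by their measured counts: they were more abundant in pericyte segments of the median eminence (ME) than in ME fibroblast segments and cortex pericyte segments of 1 mouse. RNA was counted in areas of brain sections with the GeoMx platform, in which each probe carries a barcode that ultraviolet light releases from a chosen area. All 4 animals carried 1 copy of the *Pdgfra*-H2B-EGFP allele, in which the *Pdgfra* locus drives a nuclear green fluorescent protein. The authors used it to mark fibroblasts. They also list *Pdgfra* among their markers of oligodendrocyte precursor cells. A segment is the stained part of 1 region of interest (ROI). Segments with staining for DES, a filament protein of mural cells, are called pericyte segments, and segments with GFP staining are called fibroblast segments. They are areas enriched for a cell type and not sorted cells. ME pericyte segments number 17 and come from 3 animals. There are 20 of ME fibroblasts and 15 of cortex pericytes, each over all 4 animals, and 1 cortex segment drawn by GFP.

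Pericytes are mural cells that sit in the basement membrane of capillaries and contact the endothelium. In most of the brain they help to maintain the blood–brain barrier. The ME is a circumventricular organ with fenestrated, leaky capillaries through which hypothalamic hormones enter the blood. Its pericytes and fibroblasts lie together in a wide perivascular space, whereas cortical capillaries are closely covered by pericytes and astrocyte endfeet.

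The members were taken from animal 3, which gave 13 ME pericyte, 15 ME fibroblast and 6 cortex pericyte segments. Counts were summed over the segments of each type and given as CPM, the counts scaled to a common total of 1000000. A probe had to reach 100 CPM in the ME pericyte sum, which 1230 probes did, and to exceed the higher of the other sums by over 1.5 times, which 164 of these did. Both other sums were set to at least 5 CPM. The 100 probes of highest ratio were kept and are ranked here by that ratio. The ratios of animal 3 therefore describe the choice and support nothing. They ran from 1.749 to 39.297 with a median of 2.143. The last member stood at 137.3 CPM for ME pericytes, 78.5 CPM for ME fibroblasts and 63.8 CPM for cortex pericytes. The first probe left out, with a ratio of 1.745, was close to it, at 170.8, 97.9 and 76.8 CPM. The last probe past the ratio limit had 1.5007 and the next one 1.4984.

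The members are enriched in ME pericyte segments rather than restricted to them. In animal 3 their median was 166.8 CPM in the ME pericyte sum against 71.1 CPM in the ME fibroblast and 54.4 CPM in the cortex pericyte sum. At least 85 of the 100 members had a count in each ME fibroblast segment of that animal, and all 100 had one in each of its cortex pericyte segments. Of all 20175 probes, 11662 to 18703 had a count in these ME fibroblast segments and 20157 to 20175 in these cortex pericyte segments. A count alone therefore does not set the members apart from other probes. The ME fibroblast sum was the higher of the other sums for 74 members and the cortex pericyte sum for 26. The sources used here pair no probe with a gene and give no probe sequence, so no gene, pathway or cell type marker could be named and the labelled cell types could not be checked against markers. Counts of different probes were not compared as amounts of RNA. In such areas, fewer cells of a type and less RNA per cell cannot be told apart.

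Animals 1, 2 and 4 took no part in the choice. Of these, animal 2 has 1 ME pericyte segment with 26490 counts and 20 nuclei, animal 4 has 3 with 197908 counts in all, and animal 1 has none. Single segments held from 21654 to 656061 counts. In animal 2, 1 count equals 37.8 CPM, and a probe with 0 counts may lie as high as 113.3 CPM by the usual limit of 3 counts. Animals 1 and 2 were collected on a different plate from animals 3 and 4. Segment 8 of ME pericytes, from animal 3, stands apart, since it is the deepest ME pericyte segment at 140347 counts and 60 nuclei, and 5 of the members drew on it as described further on.

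Most members kept their direction in the animals not used for the choice, and fewer kept the size. With animals 2 and 4 summed, 63 of the 100 members had a ratio above 1.5, where 9.82% of all probes and 11.1% of the 1230 abundant probes did. A ratio above 1 was seen for 87 members and for 35.1% of all probes. The median ratio was 1.688 for the members and 0.835 for all probes. In animal 2 alone 56 members exceeded 1.5, beside 21.6% of all probes, and in animal 4 alone 60 members did, beside 10.5%. Both animals exceeded 1.5 for 42 members, and for 2.59% of all probes. At the other end, 7 members were at or under 1 in both animals, beside 41.1% of all probes. These ratios were compared with no test.

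The number that kept a high ratio was also counted by rank in animal 3. In animals 2 and 4 summed, the ratio exceeded 1.5 for 19 of the 25 members of rank 1 to 25, for 18 of rank 26 to 50, for 15 of rank 51 to 75 and for 11 of rank 76 to 100. Animal 4 alone gave 19, 15, 13 and 13. The fall was not steady in the shallower animal 2, which alone gave 18, 12, 12 and 14. In both animals 17, 8, 8 and 9 exceeded 1.5. Of the 64 probes that passed both limits but ranked below 100, 17 exceeded 1.5 in animals 2 and 4 summed. In both animals 9 of these did. The highest ratio among the members in these animals was 5.470, for the member of rank 14. It rested on 55 counts for ME pericytes, 7 for ME fibroblasts and 29 for cortex pericytes. The member of rank 4 followed at 5.005, from 381, 53 and 427 counts.

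For most members the ME fibroblast sum was also the higher of the other sums in the held-out animals. The ME fibroblast sum exceeded the cortex pericyte sum for 62 members in animal 2, 63 in animal 4 and 65 in animal 1, where 40.4%, 48.2% and 46.8% of all probes did. Among the 1230 abundant probes the percentages were 62.2%, 56.8% and 58.7%, so the members were at or near the level of these. In animal 1, which had no ME pericyte segment, 22 of the 25 members of rank 1 to 25 were higher in the fibroblast than in the cortex pericyte segment, against 13 of the 25 of rank 76 to 100. The order ME pericyte, ME fibroblast, cortex pericyte, from high to low, was found for 50 members in animal 2 and 56 in animal 4. All probes showed it in 14.5% and 14.2%, and the abundant probes in 25.0% and 25.9%.

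As a share of all counts of a segment, the members were highest in the ME pericyte segments, and no segment of another type overlapped these. The members made up 2.87% of the counts of the ME pericyte segment of animal 2 (95% Wilson interval 2.67% to 3.08%, counting error only). They made up 1.90%, 2.32% and 2.42% of segments 15, 16 and 17 of animal 4. ME fibroblast segments held 1.26% in animal 1, 1.47% in animal 2 and 1.04%, 1.05% and 1.11% in animal 4. Cortex pericyte segments held 0.952% in animal 1 and 1.02% and 1.22% in animal 2. In animal 4 the cortex pericyte segments held 0.788% to 0.932%, with a median of 0.840%. The cortex GFP segment of animal 2 held 0.753%. In animal 3 the share was 2.43% to 3.69% over the 13 ME pericyte segments, 0.881% to 1.17% over the 15 ME fibroblast segments and 0.716% to 0.780% over the 6 cortex pericyte segments, which is a description of the choice. The value of 3.69% is that of segment 8, and without the member of rank 1 this segment had 2.13%, the lowest of the 13, which then ran up to 3.17%. By slide of animal 3, the ME pericyte medians were 3.06% on slide 4, 2.60% on slide 5 and 2.55% on slide 6.

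Within ROIs, the pericyte segment could be compared with the fibroblast segment of the same place. Of 17 ROIs with both, 4 lay outside animal 3. In the ROI of animal 2, 80 of the 100 members had the higher CPM in the pericyte segment, and in the 3 ROIs of animal 4 these were 74, 84 and 84. For all probes the percentages in the same ROIs were 45.6%, 38.3%, 54.4% and 51.3%. The summed share of the members was 1.956 times as high in the pericyte as in the fibroblast segment in animal 2, and 1.815, 2.199 and 2.172 times as high in animal 4. Across the 4 ROIs, 47 members were higher in the pericyte segment in all 4, 34 in 3, 15 in 2, 2 in 1 and 2 in none. The same was not counted over all probes, so no share stands beside these counts. The 3 ROIs of animal 4 lie on 1 slide of 1 animal and are not independent. In the 13 ROIs of animal 3, 77 to 96 members were higher, beside 43.0% to 56.2% of all probes, and the share was 2.158 to 4.102 times as high. The segments of animal 3 chose the members, so these values describe the choice and support nothing. The value of 4.102 is from the ROI of segment 8 and was 2.386 without the member of rank 1, which left a range of 2.168 to 3.436.

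Single segments of animal 4 also separated for part of the members. For 36 members the lowest of its 3 ME pericyte segments exceeded the highest of its 3 ME fibroblast segments, where 6.21% of all probes did. These ME fibroblast segments were shallow, and the members had a median of 7 counts over the 3 together. For 52 members the lowest ME pericyte segment exceeded the highest of the 6 cortex pericyte segments, beside 4.67% of all probes. With animals 1 and 2 added, the 4 ME pericyte segments stood above all 5 ME fibroblast segments for 26 members (1.34% of all probes). They stood above all 9 cortex pericyte segments for 31 members (1.2% of all probes). In the other direction, 1 member was lower in all ME pericyte than in all ME fibroblast segments of animal 4, beside 5.14% of all probes, and 0 were lower than all its cortex pericyte segments, beside 6.27%. With animals 1 and 2 added, 0 members were lower than all segments of either type, beside 0.729% and 1.47% of all probes.

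The comparisons were then tested across all probes on the sums per animal, without animal 3 (quasi-likelihood test of edgeR, blocked by animal, with Benjamini-Hochberg adjustment). Calls needed an adjusted p below 0.05 together with a log2 fold change beyond 1. The filter on low counts left 999 probes, 46 of them members, and 54 members were not tested. Of the 46, 22 passed the filter on the other sums and 24 only with the help of the ME pericyte sums. For these 24 the filter itself favours a positive log2 fold change, and the 22 were not counted apart. Counts and medians over the tested members therefore describe the tested members alone and give no support for a direction. Over ME fibroblast segments, 44 of the 46 had a positive log2 fold change, beside 46.2% of the probes tested. Here 8 members were called higher, beside 1.2% of the probes tested, 12 in all. Over cortex pericyte segments, all 46 had a positive log2 fold change, beside 55.9% of the probes tested. Here 37 members were called higher, beside 16.9% of the probes tested, 169 in all. The log2 fold changes of the 46 ran from -0.58 to 2.28 over ME fibroblast segments (median 1.25, all probes tested -0.05) and from 0.51 to 4.81 over cortex pericyte segments (median 1.58, all probes tested 0.17). Both comparisons use the same 2 ME pericyte sums.

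With no filter, all 100 members could be fitted. Then 2 members were called higher over ME fibroblast segments, beside 0.0595% of 20175 probes, and 25 over cortex pericyte segments, beside 0.486%. Both of the former were also called with the filter, but only 17 of the 25 were. The log2 fold change was above 0 for 92 of the 100 members over ME fibroblast and for 91 over cortex pericyte segments, where 55.7% and 45.3% of all probes were. The medians of the 100 were 1.02 and 0.95, and those of all probes 0.12 and -0.08. These p-values rest on 2 animals with ME pericyte segments, 3 residual degrees of freedom and variance shared between probes. Without animal 4 the filtered counts were 2 and 8 members, of 3 and 34 probes called among 1441. That fit has 1 ME pericyte sum, from 1 segment, which is assumed to vary like the other groups. Without ME pericyte segment 16 of animal 4 they were 4 and 29, of 5 and 141 probes called.

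The 8 members called over ME fibroblast segments had ranks 2, 4, 6, 15, 16, 20, 26 and 40. Their log2 fold changes over ME fibroblast segments ran from 1.41 to 2.28. All 8 were also called over cortex pericyte segments, in a comparison that shares the ME pericyte sums, with log2 fold changes of 1.70 to 4.81. The member of rank 15 had the largest log2 fold change over cortex pericyte segments among the members tested, 4.81 (standard error 0.43, adjusted p = 2.55e-11, edgeR). It had 755.0 CPM in the ME pericyte segment of animal 2 and 747.8 CPM in those of animal 4. In ME fibroblast segments it had 275.3, 245.3 and 262.2 CPM in animals 1, 2 and 4. Cortex pericyte segments held 48.7 CPM in animal 1, 0 counts in animal 2, which allows up to 55.6 CPM, and 33.3 CPM in animal 4. This member was thus low in the cortex in each animal, and fibroblast segments lay in between.

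The member of rank 4 was called with the smallest p over ME fibroblast segments. It had 2190 CPM in the ME pericyte segment of animal 2 and 742.4, 1920 and 1738 CPM in segments 15, 16 and 17 of animal 4. ME fibroblast segments held 340.1 CPM in animal 1, 508.1 CPM in animal 2 and 177.9, 261.9 and 307.5 CPM in animal 4. Cortex pericyte segments held 194.8 CPM in animal 1, 38.7 and 605.7 CPM in animal 2 and 228.8 to 361.3 CPM in animal 4. Every ME pericyte segment of these animals lay above every other segment, with one shallow cortex pericyte segment of animal 2 the nearest. The log2 fold change was 2.28 over ME fibroblast segments (standard error 0.35, adjusted p = 6.52e-05, edgeR) and 2.74 over cortex pericyte segments (standard error 0.33, adjusted p = 2.32e-08, edgeR). It was among the 2 members called over ME fibroblast segments with no filter, where its adjusted p was 0.00978 (edgeR).

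Probe RTS0061225, of rank 2, had 1133 CPM from 30 counts in the ME pericyte segment of animal 2. In animal 4 it had 222.7, 908.1 and 849.6 CPM in ME pericyte segments 15, 16 and 17, from 9, 96 and 44 counts. ME fibroblast segments held 388.7 CPM in animal 1, 543.2 CPM in animal 2 and 279.6, 32.7 and 136.7 CPM in animal 4. The ME pericyte and ME fibroblast segments overlapped, since ME pericyte segment 15 lay under the fibroblast segments of animals 1 and 2 and under 1 of animal 4. Cortex pericyte segments held 146.1 CPM in animal 1, 116.0 and 71.3 CPM in animal 2 and 60.3 to 93.1 CPM in animal 4, all under the ME pericyte segments. The cortex GFP segment had 0 counts, which allows up to 138.5 CPM. The log2 fold change of RTS0061225 was 1.60 over ME fibroblast segments (standard error 0.35, adjusted p = 0.0095, edgeR) and 3.40 over cortex pericyte segments (standard error 0.35, adjusted p = 4.13e-10, edgeR). With no filter the former had an adjusted p of 0.747 (edgeR) at a log2 fold change of 1.54. In animal 3 the probe had 570.0 to 1661 CPM in the 13 ME pericyte segments, with a median of 1100 CPM, and at most 366.1 CPM in the 15 ME fibroblast segments. The probe was chosen on these segments, so this separation describes the choice.

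Probe RTS0072171, of rank 1, owed its rank to 1 segment. ME pericyte segment 8 of animal 3 held 2176 of its 2209 counts in the ME pericyte segments of that animal, or 98.5%, which is 15504 CPM. The other 12 ME pericyte segments of animal 3 had 0 to 81.9 CPM. In ME fibroblast segments of animal 3 the probe ran from 0 to 154.4 CPM, so these overlapped all ME pericyte segments except segment 8. In the ME pericyte segments of the held-out animals it had 0 counts in animal 2 and 1, 6 and 2 counts in animal 4, at 24.8, 56.8 and 38.6 CPM. ME fibroblast segments held 32.4 CPM in animal 1, 52.6 CPM in animal 2 and 101.7, 32.7 and 0 CPM in animal 4. Its ratio in animals 2 and 4 was 0.783. Without segment 8 its ratio in animal 3 was 0.701, and it would not have been a member.

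In all, 8 members drew over 30% of their ME pericyte counts of animal 3 from 1 segment, a limit chosen after the values were seen. They had ranks 1, 3, 7, 11, 13, 50, 79 and 80. The segment was number 8 for 5 of them, number 14 for 2 and number 4 for 1, and these are the 3 ME pericyte segments of animal 3 with the most counts. For the other 92 members the highest segment held 11.4% to 22.0% of the counts, with a median of 15.8%. The largest share of all ME pericyte counts of animal 3 in 1 segment was 16.2%. The ratio in animals 2 and 4 exceeded 1.5 for 1 of the 8, with a median of 0.92, and for 62 of the other 92, with a median of 1.76. Leaving out each ME pericyte segment of animal 3 in turn kept 93 to 100 of the members past both limits, the lowest being without segment 8. The newly chosen 100 probes then held 91 to 97 of the members. Leaving out slide 4, 5 or 6 kept 94, 89 and 96 past both limits, and each of the newly chosen sets of 100 held 81 of the members. Over the 13 ME pericyte segments of animal 3, the coefficient of variation of the CPM of the other 92 ran from 16.5% to 67.2%, with a median of 34.6%, and 91 of these had a count in every segment.

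The lowest ratios in animals 2 and 4 belonged to RTS0065974, of rank 13, and RTS0075401, of rank 58. RTS0065974 is one of the 5 members that drew on segment 8, which gave 69 of its 100 counts. It had 0 counts in the ME pericyte segment of animal 2 and 49.5, 37.8 and 19.3 CPM in those of animal 4. In ME fibroblast segments it had 32.4 CPM in animal 1, which is under 2 of these, 52.6 CPM in animal 2 and 76.3, 65.5 and 68.3 CPM in animal 4, from 2 to 3 counts a segment. Cortex pericyte segments held 0 counts in animal 1, 116.0 and 71.3 CPM in animal 2 and 7.6 to 51.0 CPM in animal 4. It was the 1 member whose ME pericyte segments of animal 4 all lay under the ME fibroblast segments. Its ratio was 0.487, and its log2 fold change over ME fibroblast segments with no filter was -0.99 (standard error 0.87, adjusted p = 1, edgeR), which did not pass the test.

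RTS0075401 was even over the segments of animal 3, with 106.9 to 255.2 CPM in the 13 ME pericyte segments. It had 75.5 CPM in the ME pericyte segment of animal 2, from 2 counts, and 74.2, 56.8 and 96.6 CPM in those of animal 4. The ME fibroblast values were 81.0 CPM in animal 1, 245.3 CPM in animal 2 and 25.4, 98.2 and 68.3 CPM in animal 4. Cortex pericyte segments held 24.3 CPM in animal 1, 154.7 and 142.5 CPM in animal 2 and 32.9 to 73.1 CPM in animal 4. The segment types overlapped in the held-out animals. The ratio was 0.557, and the log2 fold change over ME fibroblast segments with no filter was -0.64 (standard error 0.64, adjusted p = 1, edgeR).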

How the data were processed

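The authors processed the sequencing reads with GeoMx NGS Pipeline 2.3.4 (per the file headers) and deposited raw deduplicated counts of each probe, not normalized. All 893633 deposited values were whole numbers, including those of 8 files whose value column could not be checked automatically, and a probe absent from a file was set to 0. The labels give each segment's type and animal. The animal is the replicate, and segments of 1 animal are paired because they come from the same animal. Within animals, deviations from the group means correlated at 0.218 and 0.289 (ME pericyte with ME fibroblast) and 0.101 and 0.154 (ME pericyte with cortex pericyte) in animals 2 and 4, and at 0.012, 0.067 and 0.187 (ME fibroblast with cortex pericyte) in animals 1, 2 and 4. The pairing rests on the shared animal and not on these values.

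The members and the lists were chosen with earlier results of these data known. The probes could not be paired with genes, so marker lists were not used. Probes were named by rule as the 2 of highest ratio in animal 3 and the 2 of lowest ratio in animals 2 and 4. The members of rank 4, 14 and 15 were singled out after their values were seen.

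Counts of animals 1, 2 and 4 were summed per segment type (8 sums), filtered with filterByExpr (minimum count 10) and scaled to the upper quartile (percentile 75) of the probes kept. The robust quasi-likelihood F test of edgeR 4.0.16 was run in R 4.3.3. The cortex GFP segment was left out of the fit. The test was tried on simulated counts. At a log2 change of 1.5 it recovered 15 of 83 changed probes over ME fibroblast and 26 of 83 over cortex pericyte segments. At a log2 change of 2 it recovered 38 and 44 of 60, and at 3 all 57 in both. None of the 799 unchanged probes was called in either comparison. A probe that was not called may therefore still differ. Standard errors are the log2 fold change over the square root of F and are not the spread between animals. Wilson intervals and limits of 3 counts cover counting error only. Alternatives were TMM, library totals, DESeq2 1.42.0, no filter, no replicate block, animals left out, single segments, a mixed model per probe (lmerTest 3.1.3) and other settings of the ratio. Python 3.11.15 with pandas 2.3.3 was used for the ratios.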

Additional observations from a re-analysis of the deposited data

Results flagged for a closer look

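In 6 of 21 tests, 1 segment lay far from the others of its type on the same slide or in the same animal by Dixon's criterion, which chance gives in about 1 in 20. The tests are not independent, since the share was tested both with and without the member of rank 1. ME fibroblast segment 12 was flagged in both. ME pericyte segment 8 on slide 5 had the highest share of member counts, 3.6852%. Without the member of rank 1 it had 2.1347%, the lowest of the 13 ME pericyte segments of animal 3. ME fibroblast segment 12 on slide 5 had a share of 1.0584%, above the others on its slide, and the same value with the member of rank 1 left out. The number of members with a count was low in ME fibroblast segment 11 on slide 5, at 93, in ME pericyte segment 11 on slide 6, at 95, and in cortex pericyte segment 13 of animal 4, at 98. Each had the fewest counts of its type on that slide or in that animal, with 54982, 27430 and 91065 counts.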

How the results depend on the processing

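The number of members with a ratio above 1.5 in animals 2 and 4, 63, stayed between 56 and 65 under the 16 alternatives tried for it. Without the 8 members that drew on 1 segment it was 62 of 92. With the group sums thinned to 156224 counts, 56 members and 14.0% of all probes passed. The counts from the tests moved more. Of the members called over ME fibroblast segments, 8 of 12 probes called in the fit reported, 4 of 6 were called with TMM, 2 of 12 with no filter, 2 of 2 with DESeq2, 2 of 5 with the mixed model on single segments and, in an alternative added after seeing the data, 4 of 5 without ME pericyte segment 16. Of those called over cortex pericyte segments, 37 of 169 in the fit reported, 21 of 65 were called with DESeq2, 6 of 35 with the mixed model and 19 of 117 on single segments with the animal as a replicate block, where only 28 members and 811 probes were tested. With no replicate block, which ignores the pairing by animal, 5 of 6 and 37 of 173 were called. Leaving out animals 1, 2 or 4 in turn gave 2 to 10 members over ME fibroblast and 8 to 50 over cortex pericyte segments, with the lowest counts without animal 4 and 60 to 80 members tested. Without animal 2 or animal 4, 1 ME pericyte sum is left, which is assumed to vary like the other groups. The other alternatives stayed within 1.5 times the reported counts. With TMM the median log2 fold change of all probes over cortex pericyte segments was 0.05 against 0.17, and no member tested changed direction there. At an unadjusted p under 0.05 the mixed model gave 18 members of 42 probes over ME fibroblast and 18 of 123 over cortex pericyte segments. Depth limits animal 2 most, where members had a median of 5 counts in the ME pericyte segment.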
